A study of Mus musculus with 4 samples.

Results

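The genes described here are 36 type I interferon-stimulated genes, chosen by symbol as classical members of this response and found in the all-gene table of a *Nat10* knockdown in mouse female germline stem cells (FGSCs), where they are 36 of 53465 genes. All 36 were detected and passed the filter on low values. The choice did not use the values of the knockdown comparison, although it was made with earlier results of these data known. RNA was measured by Long RNA-seq in 4 libraries, with 2 biological replicates of each group. The control group, shNC, carried a control shRNA and the other group, shNAT10, an shRNA against *Nat10*, the acetyltransferase that writes N4-acetylcytidine on RNA. Both groups were cultured ovary-derived cells of the same line, infected with lentivirus and selected with an antibiotic according to the methods. No uninfected cells enter the comparison, so what infection, selection and each shRNA construct did to interferon-stimulated genes is not measured. The labels give no age, and no treatment other than the shRNA.

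Type I interferons are secreted by cells that sense foreign or misplaced nucleic acid, and they act through a receptor made of Ifnar1 and Ifnar2 that carries the kinases Tyk2 and Jak1. The kinases activate transcription factors, among them Stat2 with its DNA-binding partner Irf9, that bind the interferon-stimulated response element in the promoters of target genes. The target genes encode proteins that bind or cut viral RNA, block viral entry and budding, amplify the signal or end it, and many of them are transcribed at a low level in unstimulated cells too.

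Promoter windows were searched for the sequence elements of the pathway. RefSeq windows on GRCm38.p6, from 250 bases before to 50 bases after a transcription start, were at hand for 28 of the 36 members. The core of the response element, GAAANNGAAA or its reverse complement TTTCNNTTTC, was present in a window of 11 of these 28 members (39.3%), against 1079 of 27025 genes (3.99%) and 1131 of 32851 windows (3.44%) over the whole RefSeq set. With only the bases before the start counted, the same number of members, 11, held it, against 3.46% of genes and 2.98% of windows. The core of the gamma-activated site, TTCNNNGAA, was found in 5 of the 28 members (17.9%), against 9.55% of genes and 8.3% of windows. A match is a string of letters in the window and no measure of binding, and a window without a match says only that these letters are not in it. The stretches below are 60 bases long and read along the strand of the gene, with every match to the response element core in capitals. They belong to the 6 members that both held a match and rose in shNAT10, and to *Isg15*, which held 3 overlapping matches and did not pass the test.
Ifit1: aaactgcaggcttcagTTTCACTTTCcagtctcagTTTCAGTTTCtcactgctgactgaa
Ifit3: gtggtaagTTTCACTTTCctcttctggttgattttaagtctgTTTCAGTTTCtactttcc
Ifit3b: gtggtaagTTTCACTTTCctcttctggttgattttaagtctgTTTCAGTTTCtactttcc
Oas1a: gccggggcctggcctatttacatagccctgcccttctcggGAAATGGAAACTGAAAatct
Bst2: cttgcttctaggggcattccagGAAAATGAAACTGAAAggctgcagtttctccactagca
Trim30a: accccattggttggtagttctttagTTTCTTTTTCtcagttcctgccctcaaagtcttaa
Isg15: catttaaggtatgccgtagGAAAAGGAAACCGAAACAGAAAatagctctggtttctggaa

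The *Ifit1* stretch lies at chr19:34640769-34640828, the *Ifit3* stretch at chr19:34583365-34583424 and the *Ifit3b* stretch at chr19:34607761-34607820, all on the plus strand. *Oas1a* is shown from chr5:120907526-120907585, *Bst2* from chr8:71537565-71537624, *Trim30a* from chr7:104465195-104465254 and *Isg15* from chr4:156200856-156200915, all on the minus strand. The stretches of *Ifit3* and *Ifit3b* are the same letter for letter, and over 268 bases their windows were 75% identical. Counted from the transcription start, the first match began at position -20 in *Oas1a*, -36 in *Trim30a*, -78 in *Isg15*, -104 in *Ifit1*, -130 in *Bst2*, -156 in *Ifit3* and -188 in *Ifit3b*. The other members with a match were *Stat2*, *Oas3*, *Ddx60* and *Rsad2*, of which none passed the test below.

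Depth and identity of the libraries were read from the deposited FPKM (fragments scaled to transcript length and library size). The sums of recovered fragments ran from 11057916 to 14902415 over the 4 libraries. In shNC-1 and shNC-2, but not in the shNAT10 libraries, the sum was above the library size that the FPKM imply. The reason was not tested, and the sums are therefore no measure of sequencing depth. Outside rRNA-related loci, shNC-1 held the fewest fragments (7921384) and shNAT10-2 the most (10162524). Fragments at rRNA-related loci made up 46.8% and 36.3% of the recovered sums in the control libraries but 24.2% and 26.2% in the knockdown libraries. This share thus moved with the group. The loci were the genes of rRNA type and a chosen set of others, among them *Gm42418*, *Gm26917* and *Lars2*. By qPCR, the paper reports the lncRNAs *Gm26917* and *Gm42418* as reduced in shNAT10, and the share counts both. With the libraries rescaled to the same fragment total outside those loci, 24 of the 36 members were called higher and 1 lower, beside 9.65% and 6.46% of the 20116 genes tested, against 22 and 1 members in the test below, beside 8.41% and 7.83%. *Nat10* itself measured 7.79 and 5.42 FPKM under shNC, against 2.95 and 3.04 under shNAT10, a log2 fold change of -1.09 (SE 0.21, adjusted p = 0.123 by limma), which was called lower but not without shNAT10-1 (-1.07) or shNAT10-2 (-1.11). Of 10 germline markers, *Pou5f1*, *Dazl*, *Dppa3* and *Tfap2c* had no fragment in any library, the 4 libraries together held 2 fragments of *Ddx4*, and 3 markers passed the filter. These were *Ifitm3*, at 9.29 to 33.6 FPKM, *Zbtb16*, at 0.338 to 0.593 FPKM, and *Gfra1*, at 0.0615 to 0.204 FPKM. A set of 6 pan-leukocyte genes, in contrast, summed to 407 and 446 FPKM under shNC and to 344 and 351 FPKM under shNAT10, and *Cpa3*, a mast cell protease, stood between 245 and 272 FPKM. Of the germline markers, *Ddx4*, *Dazl* and *Pou5f1* were thus absent or nearly so in the RNA of these libraries, which are named below by their shRNA only. For its FGSCs, the paper shows RT-PCR of germline markers, among them *Ddx4* and *Oct4* (*Pou5f1*), and immunofluorescence of both proteins.

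Most of the interferon-stimulated genes were called higher in shNAT10. In the limma test, where a gene was called past a 1.2-fold difference with p (before adjustment) no higher than 0.05, 22 of the 36 members rose and 1, *Isg20*, fell, while 13 did not pass. Over all 20116 genes tested, 8.41% were called higher and 7.83% lower. The median log2 fold change of the members was 0.67, beside 0.0054 over all genes tested, and 35 of the 36 had a log2 fold change above 0. Fold changes are on the scale of log2(FPKM + 0.1), where genes of low FPKM appear to change less than they do. Both shNAT10 libraries lay above both shNC libraries for 31 members, below them for 1, and the groups overlapped for 4 (*Irf7*, *Ifi27*, *Sp100* and *Isg15*). Over all genes, 23.9% lay above and 24.1% below in this way.

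Strength of evidence differed with the tool. After Benjamini-Hochberg adjustment over all genes, limma gave 0 members an adjusted p under 0.05 (23 were under 0.05 without adjustment, and the smallest adjusted p was 0.061, for *Trim30a*), where 0.437% of all genes were past that mark. Limma-voom on the recovered fragments passed 20 members as higher and 1 as lower once its p-values were adjusted (under 0.05), beside 4.23% and 3.65% of the 20077 genes it tested. With 2 libraries per group, an exact two-sided permutation test of a single gene cannot go below p = 0.3333. Calls also rested on single libraries: 11 members were called higher without shNAT10-1 and 9 without shNAT10-2, against 16 without shNC-1 and 24 without shNC-2. Over all genes tested the share called higher was 5.51% and 5.86% in the first pair of fits, and 8.62% and 8.61% in the second, and the share called lower was 4.47% and 5.01%, then 8.25% and 6.92%. These 9 members kept the call whichever library was left out: *Ifit2*, *Ifit3*, *Oas2*, *Oasl2*, *Cmpk2*, *Samd9l*, *Ifi44*, *Rtp4* and *Trim30a*, and the fall of *Isg20* was called in all 4 such fits as well. The other 13 lost it in at least 1 of them. Less RNA per cell cannot be told apart from fewer cells carrying it in any of these bulk values.

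**Figure D1:**
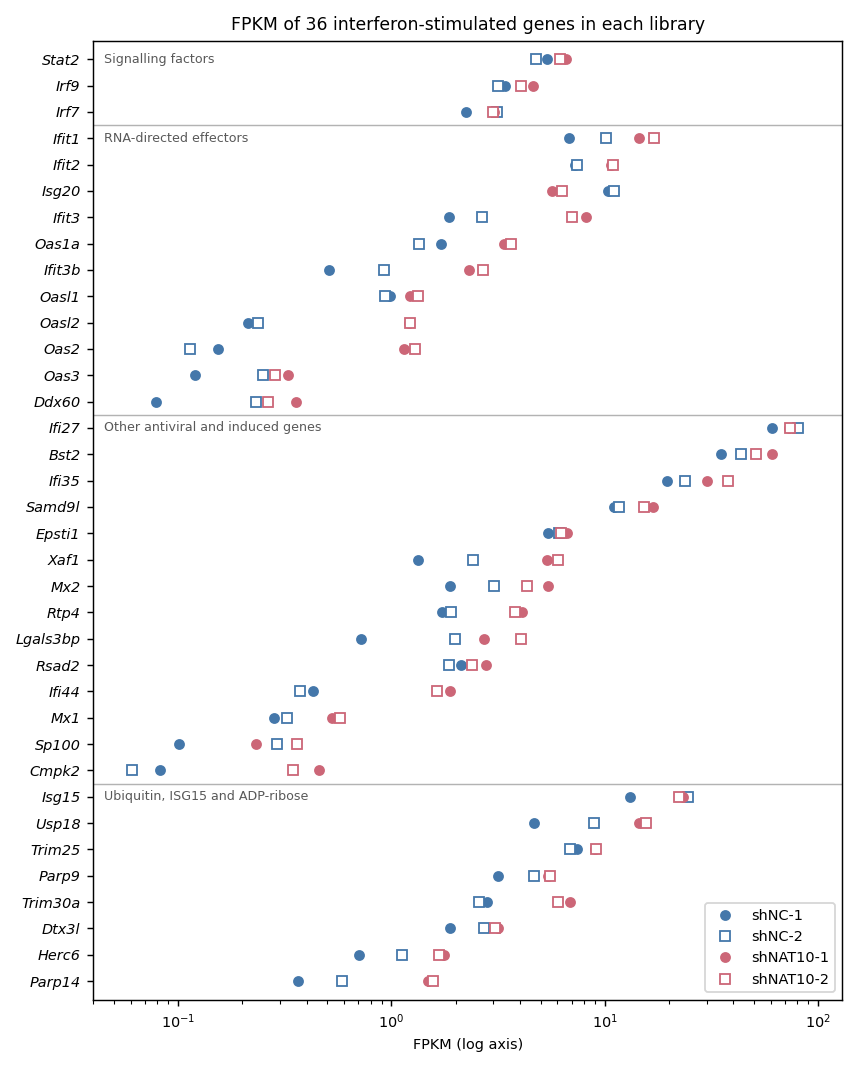
FPKM (log axis) of the 36 interferon-stimulated genes in each library, grouped by role and ordered by mean within a role, with filled circles for replicate 1, open squares for replicate 2, blue for shNC and red for shNAT10. The red points lie to the right of the blue ones for 31 genes and to the left for *Isg20*, and levels run from 0.0607 FPKM (*Cmpk2* in shNC-2) to 80.5 FPKM (*Ifi27* in shNC-2).

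Expression levels covered a wide range. A mean of at least 5 FPKM was reached by 12 members, 16 lay from 1 to 5 FPKM, and 8 lay under 1 FPKM. Ranked among the 20116 genes tested, the members' means ran from the 13.9th to the 97.5th percentile, with a median at the 61.8th. No member had fewer than 3 fragments in any library, and 4 had fewer than 10 in at least 1. The FPKM of all members summed to 216 and 276 for the controls and to 340 and 338 for the knockdown.

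Among the 3 signalling factors, *Irf9* passed the test. *Irf9*, the DNA-binding partner of Stat2, had 3.40 and 3.17 FPKM in the controls and 4.60 and 4.07 FPKM in the knockdown (1065 fragments in all), a log2 fold change of 0.39 (SE 0.14, adjusted p = 0.279 by limma). *Stat2* had 5.37 and 4.76 FPKM in the controls and 6.56 and 6.15 FPKM in the knockdown (1756 fragments), and its log2 fold change of 0.32 just missed the call (unadjusted p = 0.0523 by limma). Both genes separated the groups, with log2 fold changes under the members' median. The call of *Irf9* was lost when any of the 4 libraries was left out, at log2 fold changes from 0.30 to 0.47. *Irf7*, which amplifies the transcription of interferon genes, measured 2.23 and 3.12 FPKM under shNC, against 3.02 and 2.99 under shNAT10 (555 fragments). Its groups overlapped, since shNC-2 was the highest of the 4 libraries, and the log2 fold change of 0.18 became -0.055 without shNC-1.

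RNA-directed effectors held both the largest rises and the only fall: 7 of 11 rose, 1 fell and 3 did not pass. Of all genes tested, 8.41% were called higher and 7.83% lower. The Ifit proteins bind viral RNA and keep it from being translated, and their genes lie side by side on chromosome 19, from *Ifit2* at chr19:34550694-34576419 through *Ifit3* and *Ifit3b* to *Ifit1* at chr19:34640871-34650009, all on the plus strand. *Ifit3* had 1.85 and 2.66 FPKM in the controls and 8.13 and 7.03 FPKM in the knockdown (459 fragments), a log2 fold change of 1.72 (SE 0.21, adjusted p = 0.0711 by limma). *Ifit3b*, its near-copy, measured 0.511 and 0.927 FPKM under shNC, against 2.31 and 2.67 under shNAT10 (174 fragments), which gives a log2 fold change of 1.71 (SE 0.32). The 2 genes share sequence, with 41.1% of the 75-base stretches of *Ifit3* transcripts also present in *Ifit3b*, so reads may have been split between them and their separate values are uncertain. *Ifit1* measured 6.80 and 10.2 FPKM under shNC, against 14.5 and 17.1 under shNAT10 (1712 fragments), a log2 fold change of 0.91 (SE 0.22). *Ifit2* had 7.26 and 7.42 FPKM in the controls and 10.8 and 10.9 FPKM in the knockdown (1870 fragments), a log2 fold change of 0.56 (SE 0.10). The replicates of *Ifit2* were close in both groups, while *Ifit1* varied by more within shNC than within shNAT10. The call of *Ifit1* was lost without shNC-1 (0.62), shNAT10-1 (1.03) or shNAT10-2 (0.79), and that of *Ifit3b* without shNAT10-1 (1.81) or shNAT10-2 (1.61), all on the log2 scale.

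The oligoadenylate synthetases make short oligoadenylates that switch on RNase L, which then cuts RNA. *Oas2* had the largest rise of all 36 members: it went from 0.153 and 0.114 FPKM (shNC) to 1.15 and 1.29 FPKM (shNAT10), from 8 and 6 fragments to 64 and 88, a log2 fold change of 2.50 (SE 0.33, adjusted p = 0.0762 by limma). *Oasl2* measured 0.214 and 0.238 FPKM under shNC, against 1.21 and 1.22 under shNAT10, from 16 and 18 fragments to 97 and 119, a log2 fold change of 2.01 (SE 0.28, adjusted p = 0.0837 by limma). *Oas1a* had 1.72 and 1.34 FPKM in the controls and 3.38 and 3.63 FPKM in the knockdown (253 fragments), which gives a log2 fold change of 1.16 (SE 0.19). These 3 genes separated the groups by far more than the replicates differed, though *Oas1a* shares 47.6% of its 75-base stretches with *Oas1g*, and its call was lost without shNAT10-2 (log2 fold change 1.11). Their relatives on the same chromosome did not pass the test: *Oas3* (91 fragments) had a log2 fold change of 0.55 and *Oasl1* (152 fragments), which holds back the translation of *Irf7* mRNA, of 0.38. *Oas3* lies 3.24 kb from *Oas2*, and *Oasl1* lies 11.0 kb from *Oasl2*, so in both neighbouring pairs the log2 fold changes of the 2 genes lay far apart, without a test of that difference.

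*Isg20*, an RNA exonuclease, ran the other way. It measured 10.3 and 11.1 FPKM under shNC, against 5.65 and 6.28 under shNAT10 (780 fragments), a log2 fold change of -0.83 (SE 0.11, adjusted p = 0.0818 by limma), with no overlap between the groups. *Ddx60*, a helicase, was near the bottom of the range with 106 fragments in all and a log2 fold change of 0.74 that did not pass.

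**Figure D2:**
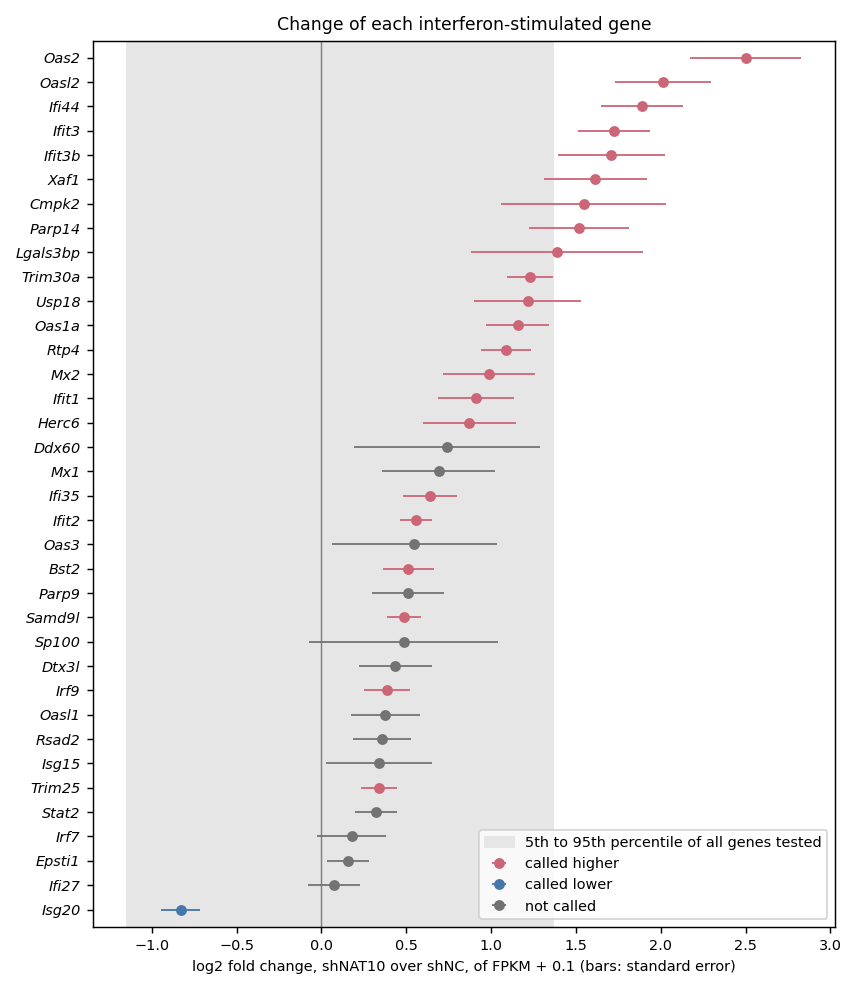
Log2 fold change of shNAT10 over shNC, on the scale of log2(FPKM + 0.1), for each of the 36 genes in order of size, with bars for the standard error of the limma fit and a grey band from the 5th to the 95th percentile of all genes tested (-1.15 to 1.36). Red points mark genes called higher, blue the gene called lower and grey those that did not pass, and 9 genes lie above the band and 0 below it.

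Antiviral and other induced genes rose in 9 of 14 cases and fell in 0, while 5 did not pass, beside 8.41% and 7.83% of all genes tested. *Xaf1*, which binds an inhibitor of apoptosis, measured 1.33 and 2.41 FPKM under shNC, against 5.34 and 6.07 under shNAT10 (957 fragments), a log2 fold change of 1.61 (SE 0.30, adjusted p = 0.123 by limma). *Ifi44* had 0.431 and 0.371 FPKM in the controls and 1.88 and 1.63 FPKM in the knockdown (356 fragments), which gives a log2 fold change of 1.89 (SE 0.24, adjusted p = 0.0741 by limma). *Rtp4*, a chaperone of membrane receptors, had 1.72 and 1.90 FPKM in the controls and 4.11 and 3.80 FPKM in the knockdown (325 fragments), a log2 fold change of 1.09 (SE 0.15, adjusted p = 0.0818 by limma). All 3 kept wide gaps between the groups. *Rtp4* overlaps exons of *Gm45338* on the same strand over 13.9% of its exon length, and part of its reads may belong there. The call of *Xaf1* was lost without shNAT10-1 (1.71) or shNAT10-2 (1.52).

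*Mx2*, a dynamin-like GTPase gene whose deposited gene type is polymorphic pseudogene, measured 1.88 and 3.03 FPKM under shNC, against 5.42 and 4.33 under shNAT10 (696 fragments), a log2 fold change of 0.99 (SE 0.27). *Mx1*, 72.4 kb away on chromosome 16, had 85 fragments in all and a log2 fold change of 0.69 that did not pass. *Lgals3bp*, a secreted galectin-binding glycoprotein, had 0.718 and 1.98 FPKM in the controls and 2.71 and 4.06 FPKM in the knockdown (365 fragments), which gives a log2 fold change of 1.39 (SE 0.51). Its replicates lay far apart in both groups, so the error is the widest of the called members. The call of *Lgals3bp* was lost without shNC-1 (0.72), shNAT10-1 (1.67) or shNAT10-2 (1.11), and that of *Mx2* without shNC-1 (0.66), shNAT10-1 (0.83) or shNAT10-2 (1.15).

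*Cmpk2*, a mitochondrial nucleotide kinase gene, went from 0.0818 and 0.0607 FPKM (shNC) to 0.459 and 0.345 FPKM (shNAT10), a log2 fold change of 1.54 (SE 0.49). The shNC values rest on 4 and 3 fragments, at or just above the floor of 3 fragments, and the shNAT10 values on 24 and 22. The neighbour of *Cmpk2* at 12.8 kb on chromosome 12, *Rsad2*, encodes viperin, an antiviral enzyme, and had 514 fragments and a log2 fold change of 0.36 that did not pass.

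The highest mean levels belonged to *Ifi27*, *Bst2*, *Ifi35* and *Isg15*, with log2 fold changes of 0.64 or less. *Bst2*, or tetherin, which holds budding virus at the cell surface, measured 35.2 and 43.6 FPKM under shNC, against 61.0 and 51.2 under shNAT10 (2240 fragments), a log2 fold change of 0.51 (SE 0.15). *Ifi35* had 19.7 and 23.7 FPKM in the controls and 30.1 and 37.8 FPKM in the knockdown (2537 fragments), a log2 fold change of 0.64 (SE 0.16). *Samd9l*, a restrictor of poxvirus growth, had 11.0 and 11.7 FPKM in the controls and 16.8 and 15.2 FPKM in the knockdown (3863 fragments), which gives a log2 fold change of 0.49 (SE 0.10, adjusted p = 0.143 by limma). All 3 were called higher without overlap of the groups. Exons of *Gm11626* lie on the opposite strand over 16.8% of the exon length of *Ifi35*, and whether strand entered the counting is not stated. The call of *Bst2* was lost without shNC-1 (0.36), shNC-2 (0.67), shNAT10-1 (0.39) or shNAT10-2 (0.64), and that of *Ifi35* without shNC-1 (0.51), shNC-2 (0.78) or shNAT10-2 (0.48).

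*Ifi27*, the most abundant member, measured 60.8 and 80.5 FPKM under shNC, against 73.3 and 74.1 under shNAT10 (5466 fragments), with a log2 fold change of 0.08 that did not pass. Its shNAT10 libraries lay between the shNC libraries, and the log2 fold change was -0.13 without shNC-1. *Epsti1* had 5.39 and 6.13 FPKM in the controls and 6.62 and 6.24 FPKM in the knockdown (731 fragments), with a log2 fold change of 0.16 that did not pass although the groups did not overlap. *Sp100*, a protein of nuclear bodies, had 99 fragments in all, a log2 fold change of 0.48 and overlapping groups.

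Genes of Isg15, ubiquitin and ADP-ribose conjugation rose in 5 of 8 cases, beside 8.41% of all genes tested, and 3 did not pass. *Isg15*, the ubiquitin-like modifier, measured 13.1 and 24.6 FPKM under shNC, against 23.3 and 22.2 under shNAT10 (815 fragments), with a log2 fold change of 0.34 (SE 0.31) that did not pass. The value depended on which control was kept: the highest and the lowest library were both shNC, and the log2 fold change was -0.12 without shNC-1 and 0.79 without shNC-2. *Usp18*, which takes Isg15 off its targets and dampens the receptor, measured 4.67 and 8.88 FPKM under shNC, against 14.5 and 15.7 under shNAT10 (1626 fragments), a log2 fold change of 1.22 (SE 0.32). *Herc6*, the Isg15 ligase of the mouse, had 0.706 and 1.12 FPKM in the controls and 1.76 and 1.68 FPKM in the knockdown (645 fragments), a log2 fold change of 0.87 (SE 0.28). The remover and the ligase thus rose while the modifier did not pass, without a test of that difference. The call of *Usp18* was lost without shNAT10-1 (1.27) or shNAT10-2 (1.16), and that of *Herc6* without shNC-1 (0.57), shNAT10-1 (0.84) or shNAT10-2 (0.90). *Herc6* shares 13.7% of its exon length with *Gm45193* on the same strand.

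*Trim30a*, a TRIM family protein, had the smallest adjusted p by limma, with 2.82 and 2.58 FPKM under shNC, against 6.88 and 6.06 under shNAT10 (999 fragments), which gives a log2 fold change of 1.23 (SE 0.14, adjusted p = 0.061 by limma). *Trim25*, a ubiquitin ligase that acts on the RNA sensor RIG-I, had 7.44 and 6.85 FPKM in the controls and 9.03 and 9.08 FPKM in the knockdown (2424 fragments), a log2 fold change of 0.34 (SE 0.10). The rise of *Trim25* was the smaller of these, without a test of the difference, and its call was lost without shNAT10-1 (0.34) or shNAT10-2 (0.33).

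*Parp14*, an ADP-ribosyltransferase, measured 0.366 and 0.588 FPKM under shNC, against 1.48 and 1.56 under shNAT10 (501 fragments), a log2 fold change of 1.52 (SE 0.29), and its call was lost without shNAT10-1 (1.55) or shNAT10-2 (1.48). *Dtx3l* and *Parp9*, whose proteins form a ubiquitin ligase complex, lie beside *Parp14* on chromosome 16 and overlap each other on opposite strands. They had 807 and 1196 fragments and log2 fold changes of 0.44 and 0.51 that did not pass, though both shNAT10 libraries lay above both shNC libraries for each.

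The control replicates differed more among themselves than the knockdown replicates did, with a median absolute difference of 0.32 against 0.14 over the members on the log2 scale, beside 0.27 against 0.20 over all genes tested. In shNC-1 the members were lower than in shNC-2 for 26 of 36 (72.2%), beside 47.4% of all genes tested, with a median difference of -0.29 against 0 over all genes. Between the shNAT10 libraries the median difference of the members was 0.0037. The lowest of the 4 libraries was shNC-1 for 25 members, shNC-2 for 10 and shNAT10-1 for 1, beside 5803, 5449 and 4724 of the 20116 genes tested. Relative to each gene's own mean, the median log2 deviation of the members was -0.58 for shNC-1 and -0.21 for shNC-2, and in the knockdown 0.34 for shNAT10-1 and 0.37 for shNAT10-2. Both controls lay below both knockdown libraries by this measure. With shNC-1 left out, the members' median log2 fold change was 0.53 and with shNC-2 left out it was 0.92. For 6 of the called members the shNC libraries differed by more than 1.5 times on the scale of FPKM + 0.1.

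**Figure D3:**
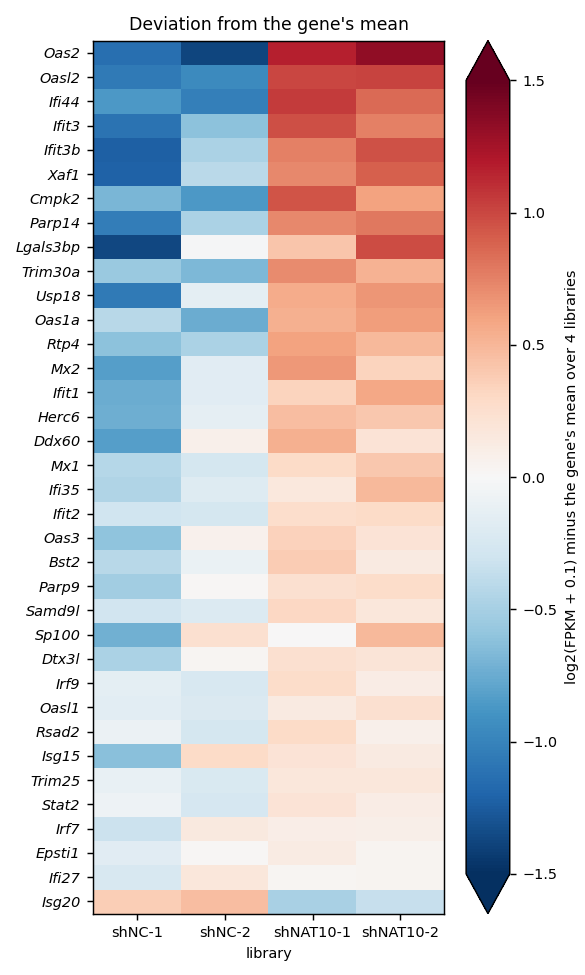
Deviation of log2(FPKM + 0.1) from each gene's mean over the 4 libraries (colour, blue below and red above the mean, cut at 1.5) for the 36 genes, ordered by log2 fold change, in the 4 libraries. Both shNAT10 columns are red down to the lower rows, the shNC-1 column is the bluest for 25 genes, and *Isg20* in the last row has the opposite pattern.

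Members with and without a response element match were found both among those that rose and among those that did not. Of the 11 members with a match, 6 rose, with a median log2 fold change of 0.74. Of the 17 with a window and no match, 11 rose and 1 fell, with a median of 0.49, and of the 8 without a window 5 rose, with a median of 1.04. The ranges overlapped, from 0.32 to 1.72 with a match and from -0.83 to 2.01 without, and no test was made of these counts. They stand beside the 8.41% of all genes tested that were called higher and the 7.83% called lower.

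The ligands were barely detected. Of 12 interferon genes listed, 8 were at 0 in all libraries. *Ifnb1*, interferon beta, had 0 fragments in both controls, 5 in shNAT10-1 and 1 in shNAT10-2, and its difference did not pass. *Ifne*, *Ifnk* and *Ifng* had 1 fragment each. A count of 0 allows up to 3 fragments in a library, so a low level of these ligands was not detectable at this depth.

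Of 8 tested receptor chains and kinases, 0 were called higher and 1, *Jak2*, lower, beside 8.41% and 7.83% of all genes tested. In 5 of the 8 both shNAT10 libraries lay below both controls, and in 2 above, beside 24.1% and 23.9% of all genes. *Jak2* went from 15.5 and 13.9 FPKM (shNC) to 11.9 and 11.2 FPKM (shNAT10), a log2 fold change of -0.34 (SE 0.11). Jak2 serves the interferon gamma receptor, not the type I receptor. Its call was lost without shNC-1 (-0.26), shNAT10-1 (-0.38) or shNAT10-2 (-0.30). *Ifnar1* (-0.22), *Ifnar2* (-0.26), *Tyk2* (-0.23) and *Jak1* (0.03) did not pass, and neither did the receptor chains *Ifngr1* (0.37) and *Ifngr2* (0.07) of interferon gamma or *Il10rb* (-0.39).

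Of 11 tested genes for the induction of interferon transcription, among them *Irf2*, known as a repressor that opposes *Irf1*, 1 was called higher and 2 lower, beside 8.41% and 7.83% of all genes tested. *Irf1* rose (log2 fold change 0.78, SE 0.13), *Irf5* (-0.37) and *Ticam1* (-0.66), the adaptor of Tlr3, fell, and 8 did not pass. Of 7 genes that restrain the pathway, *Socs3* (0.37) and *Ptpn11* (0.47) rose, *Socs1* (-0.40) and *Ptpn2* (-0.46) fell, and 3 did not pass. Of these calls, those of *Irf1* and *Irf5* held with any 1 library left out. That of *Ticam1* was lost without shNAT10-1 (-0.65) or shNAT10-2 (-0.66), that of *Socs3* without shNAT10-1 (0.32), that of *Socs1* without shNAT10-1 (-0.40) or shNAT10-2 (-0.41), that of *Ptpn2* without shNC-1 (-0.40) or shNAT10-2 (-0.40), and that of *Ptpn11* without shNC-2 (0.25), shNAT10-1 (0.47) or shNAT10-2 (0.48).

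Interferon-inducible GTPases, which guard against pathogens inside vacuoles, rose in 10 of 15 tested cases and fell in 0, with a median log2 fold change of 1.26, from 0.64 (*Gbp7*) to 2.55 (*Iigp1*) among those called. Calls of *Tgtp1*, *Ifi47*, *Gbp2* and *Gbp7* held with any 1 library left out, 4 of the 10, and those of *Irgm1*, *Igtp*, *Iigp1*, *Tgtp2*, *Gbp3* and *Gbp9* did not. The log2 fold changes of these 6 stayed above 0 in those fits, from 1.2 to 1.78 for *Irgm1*, from 0.92 to 1.31 for *Igtp*, from 2.07 to 3.04 for *Iigp1*, from 1.43 to 2.11 for *Tgtp2*, from 1.08 to 1.90 for *Gbp3* and from 0.81 to 1.07 for *Gbp9*. The GTPases are induced by interferon gamma as well as by type I interferons. Nucleic acid sensors rose in 6 of 13 tested cases (*Ifih1*, *Mb21d1*, *Zbp1*, *Eif2ak2*, *Tlr3* and *Aim2*) and fell in 0, with a median of 0.44, and the calls of *Zbp1*, *Eif2ak2* and *Tlr3*, 3 of the 6, held in this way. With 1 library left out, the log2 fold changes of the others ranged from 0.55 to 0.57 for *Aim2*, from 0.30 to 0.46 for *Mb21d1* and from 0.39 to 0.65 for *Ifih1*. These shares stand beside the 8.41% of all genes that were called higher.

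**Figure D4:**
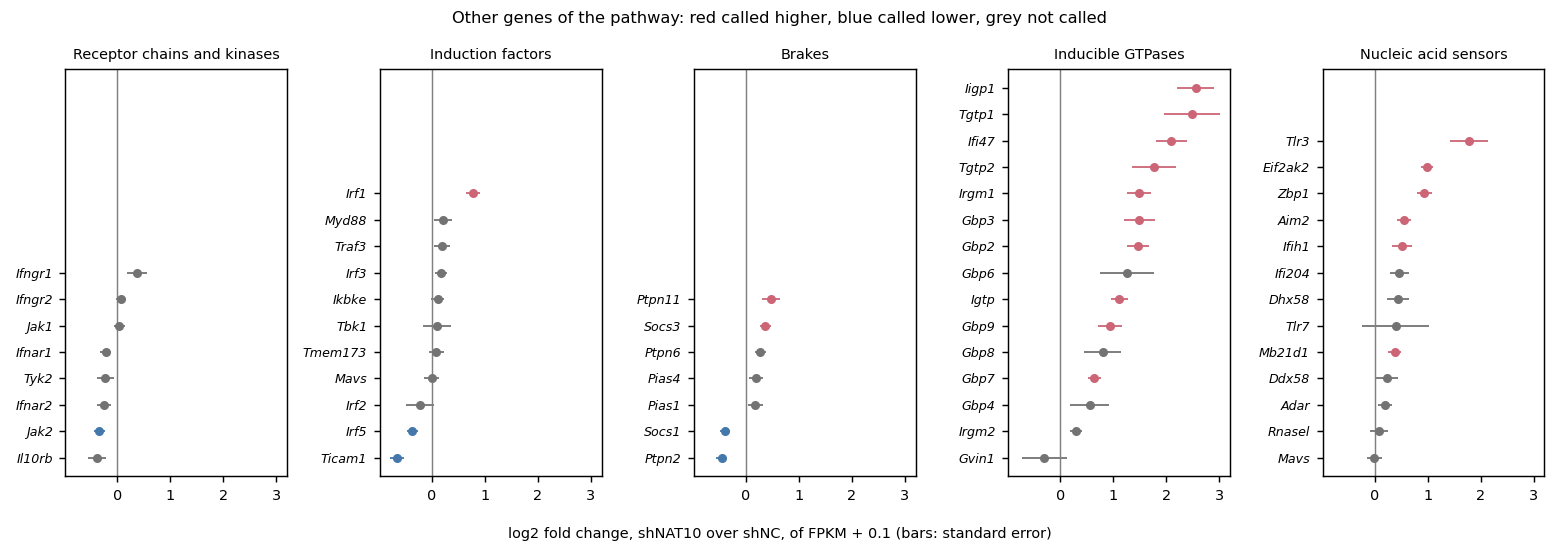
Log2 fold change of shNAT10 over shNC, on the scale of log2(FPKM + 0.1), with bars for the standard error, of the other tested genes of the pathway in 5 panels. Red points were called higher, blue lower and grey not called, with 10 of 15 red in the GTPase panel both colours in the panels of induction factors and brakes, and *Jak2* the coloured point among receptor chains and kinases.

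Markers of cells that could carry an interferon response were read beside these results. The 6 pan-leukocyte genes gave 0 rises and 3 falls (*Cd53*, *Laptm5* and *Lcp2*). Beside the calls in each of these lists stand the 8.41% of all genes tested that were called higher and the 7.83% called lower. The sums of the pan-leukocyte genes, given above, were lower in shNAT10 while the members' sums were higher. Most of that difference lay in *Cd53*, at 174 and 196 FPKM (shNC) and 121 and 126 FPKM (shNAT10), whereas *Ptprc* (log2 fold change -0.01), *Coro1a* (-0.04) and *Vav1* (-0.03) did not pass. Of the macrophage list, 3 of 8 genes were tested, *Adgre1* fell, *Cd14* (log2 fold change 0.70, groups not overlapping) and *Csf1r* (0.24) did not pass, *C1qa* and *C1qb* were at 0 in all libraries, and the sums, mostly *Adgre1*, were 48.8 and 51.0 FPKM for shNC, then 38.7 and 43.7 for shNAT10. Of the plasmacytoid dendritic cell list, *Siglech* was at 0 in all libraries, *Cox6a2* fell, *Klrd1* (log2 fold change 0.91, groups not overlapping) did not pass, and the sums, mostly *Cox6a2*, were 6.88 and 12.3 FPKM for shNC, then 4.45 and 4.33 for shNAT10. The sums of these 3 lists were lower in both shNAT10 libraries than in either control, although in each a single gene made up most of the difference. In the macrophage and dendritic cell lists, the other tested genes, *Cd14*, *Csf1r* and *Klrd1*, had log2 fold changes above 0. Of the mast cell list 5 of 10 genes were tested, *Ms4a2* rose (log2 fold change 2.12), *Kit* (-0.60) and *Mitf* (-0.39) fell, *Fcer1a* and *Tpsb2* were at 0 in all libraries, and the sums, mostly *Cpa3*, ran from 280 to 298 FPKM over the 4 libraries. Sums of fibroblast markers ran from 44.4 to 59.6 FPKM, with *Pdgfra* called higher, *Lum* at 0 and *Dcn* at 36.2 to 45.9 FPKM. Those of granulosa cell and lymphocyte markers stayed under 0.5 FPKM in every library, with *Foxl2*, *Fshr*, *Cd3e* and *Ms4a1* at 0. *Ifitm3*, used as a germline marker and itself an interferon-stimulated gene, measured 9.29 and 22.2 FPKM under shNC, against 27.1 and 33.6 under shNAT10. Its log2 fold change of 1.06 did not pass, although the groups did not overlap. No call of a marker gene in any of these lists held with every library left out in turn, while the log2 fold changes kept their sign in those fits, from 1.77 to 2.47 for *Ms4a2*, from 0.63 to 1.03 for *Pdgfra*, from -0.70 to -0.50 for *Kit* and from -0.67 to -0.50 for *Cd53*. Shares of cell types were not measured, and their part in the interferon-stimulated genes was not tested.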

How the data were processed

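Long RNA-seq of 2 shNC and 2 shNAT10 libraries was analysed, grouped by the sample labels. The authors deposited FPKM for each gene and library. The submitters' processing notes name mm10, cutadapt, HISAT2 and DESeq2, and neither the gene annotation nor the counting program is given in the sources used here. The methods describe rRNA depletion and the labels isolation of mRNA. A second deposited table holds the authors' own comparison (fold change, p and adjusted p) and was not used.

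Genes averaging at least 0.1 FPKM, 20116 in all, entered a two-sided limma test (version 3.58.1, R 4.3.3, with trend) on log2(FPKM + 0.1), with Benjamini-Hochberg adjustment over all genes. A call needed more than a 1.2-fold difference and an unadjusted p no higher than 0.05. Fragments were recovered from FPKM and GENCODE M21 exon lengths, with 96.3% of values under 50 fragments within 0.02 of a whole number. PCR copies were not told apart, so counts give counting error only. P-values set the group difference against the spread between libraries of a group, which limma draws towards a trend over all genes. The members and gene lists were chosen with earlier results of these data known. Library values are given for each member called, with a mean of at least 5 FPKM, or among *Irf7*, *Irf9* and *Stat2*. Other pathway genes are named where called, where a receptor chain or kinase, or where an interferon gene with fragments. *Irf2* is named for its role in its list. A gene of the pathway is not reported here. Cell type markers are named as examples of their lists. The test was checked on simulated data. Alternatives were pseudocounts, filters, scalings, limma without trend, a replicate block, limma-voom and each library left out. Python 3.11.15, numpy 2.4.6, pandas 2.3.3 and matplotlib 3.10.9 did the rest.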

Additional observations from a re-analysis of the deposited data

How the results depend on the processing

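Of the members' values under the alternatives that kept all libraries, 335 kept direction and call, 10 gained the call, 7 lost it (*Irf9*, *Bst2*, *Lgals3bp* and *Trim25* without limma's trend, *Lgals3bp* without the filter, and 2 under the block below) and 0 turned, and members called higher ranged from 19 to 26. With pseudocount 1 the members' median log2 fold change was 0.48, by construction closer to 0. With 1 library left out, members called higher ranged from 9 to 24 and lower from 1 to 1, all genes called higher from 1108 to 1734 and lower from 899 to 1659, the members' median from 0.53 to 0.92 and *Nat10* from -1.35 to -0.83, which missed the threshold without shNAT10-1 (-1.07) or shNAT10-2 (-1.11). These fits leave a group with 1 library, whose spread is taken to be that of the other group. Without shNC-1 the direction turned for *Irf7*, *Ifi27* and *Isg15*, whose log2 fold changes with 1 library left out ranged from -0.055 to 0.41, from -0.13 to 0.28 and from -0.12 to 0.79. Genes with an adjusted p under 0.05 numbered 88 by limma, 296 at a mean of at least 1 FPKM (4 of them members), 151 after quantile normalization, 135 after scaling to the fragment total outside rRNA-related loci, 1582 by limma-voom and 0 with other pseudocounts, no filter, no trend, the block or a library left out. The cause was not tested. Same-numbered libraries did not deviate together (correlation 0.0071), and a replicate block gave 21 members higher and 1 lower, with *Irf9* and *Cmpk2* (p = 0.0596 by limma) losing the call and *Parp9* gaining it. Depth limits genes near 3 fragments, *Cmpk2* among the members and the interferon ligands.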
